A study of Homo sapiens with 6 samples.

Results

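Senescence-associated secreted factors are cytokines, chemokines, proteases, growth factors and binding proteins that damaged or arrested cells release into their surroundings. The 46 genes described here, of 21447 genes in the files, were chosen by name from that class, by a rule that names the genes and sets no condition on their values, although earlier results of these data were known when the list was drawn up. They comprise 9 cytokines, 9 chemokines, 8 genes of extracellular proteolysis, 3 tissue inhibitors of metalloproteinases, 6 insulin-like growth factor binding proteins, 9 growth factors and hormones, the adhesion molecule ICAM1 and the decoy receptor TNFRSF11B. Bulk RNA-seq had been done on unsynchronized U-2 OS cells, a human osteosarcoma line grown in DMEM with fetal bovine serum. One group of 3 libraries was untreated and the other group of 3 had received 4 Gy of ionizing radiation (IR) 24 h earlier, so that the comparison asks which of these genes differed in RNA level a day after the dose. Both groups come from a single tumour line, in which secretion and other cell types are not measured, and although the study's methods call the samples of a group independent, neither they nor the labels say whether these were separate cultures, so that p-values measure the spread between these libraries, which may be technical.

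In the secretory response to DNA damage, IL1A at the cell surface and the kinases ATM and p38 are known to act through NF-kB and C/EBPB, which switch on IL6, CXCL8 and related genes. The full programme is known to build up over days, and its members differ in how far they depend on NF-kB. Metalloproteinases and the plasminogen activators cut the matrix, the TIMPs inhibit metalloproteinases, the IGFBPs bind insulin-like growth factors, and AREG, EREG and NRG1 are ligands of the EGF receptor family.

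Total estimated counts were between 18573309 and 22953834 in 5 libraries and 45308792 in IR replicate 3, so that counting error was smallest in that library. CDKN1A, the p53 target that encodes the inhibitor p21, had between 120.3 and 124 CPM in untreated libraries and between 322 and 390.0 CPM after IR, a log2 fold change of 1.53 ± 0.08 (SE). MDM2 rose (0.60), and the lamina gene LMNB1 (-0.55) and the proliferation gene MKI67 (-1.10) fell. Of the osteoblast lineage markers, COL1A1, SPARC, VIM and SPP1 were abundant, whereas SP7 was at 0 in each library and BGLAP and IBSP were below 0.25 CPM. In the same list ALPL rose (1.09, adjusted p = 0.00716) and RUNX2 fell (-0.36, adjusted p = 0.025). The summed level of 5 leukocyte markers was 7.92 to 11.1 CPM in untreated libraries and 12.1 to 17.9 CPM after IR, most of it CD68, with CD3E at 0 in each library. CD68 was called higher (0.67, adjusted p = 0.0189), whereas PTPRC, the general leukocyte marker, was lower in each IR library than in each untreated library without being called (-0.77, adjusted p = 0.0607), and CD14 and LYZ did not pass the filter on low counts. The summed levels of 3 endothelial markers (3.17 to 4.35 and 3.39 to 5.11 CPM) and 4 epithelial markers (12.0 to 14.9 and 13.1 to 15.6 CPM) overlapped between groups, although CDH1 of the epithelial list was called higher (0.61, adjusted p = 0.0465), and the part of other cell types in the results below was not tested.

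CPM stands for the count of a gene relative to library size, scaled by the trimmed mean of M values, and each fold change compares IR with untreated libraries. The adjusted p-values come from edgeR's quasi-likelihood test over 14323 genes with Benjamini–Hochberg adjustment, and a gene is called higher or lower where this value is under 0.05. An exact permutation test of a single gene with 3 libraries against 3 cannot give a two-sided p below 0.1. Of the 46 members, 30 passed the filter on low counts in both groups, IL6 passed through the IR libraries alone, and 15 did not pass. Among the 30, 16 were called higher and 2 lower, which is 53.3% and 6.67%, beside 15.5% called higher, 14.5% called lower and 30.1% called in either direction among all tested genes. The libraries of the groups did not overlap for 17 of the 30 in the higher and 2 in the lower direction, beside 23.8% and 23.3% of all tested genes, or 47.1% in either direction. The median log2 fold change was 0.30 over the 30 members and 0.01 over all tested genes. Counts of members called within each role, given below, are of few genes and stand beside the same shares of all tested genes. Without IR replicate 3, the deepest library, 15 of 32 members tested were called higher and 2 lower, beside 12.4% and 13.7% of all genes. These 32 were not limited to members that passed the filter in both groups. They include IL6, which was not called in that fit, and a member that had not passed the filter with all libraries. In RNA from a whole culture, fewer cells that express a gene and less RNA per cell cannot be told apart.

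**Figure D1:**
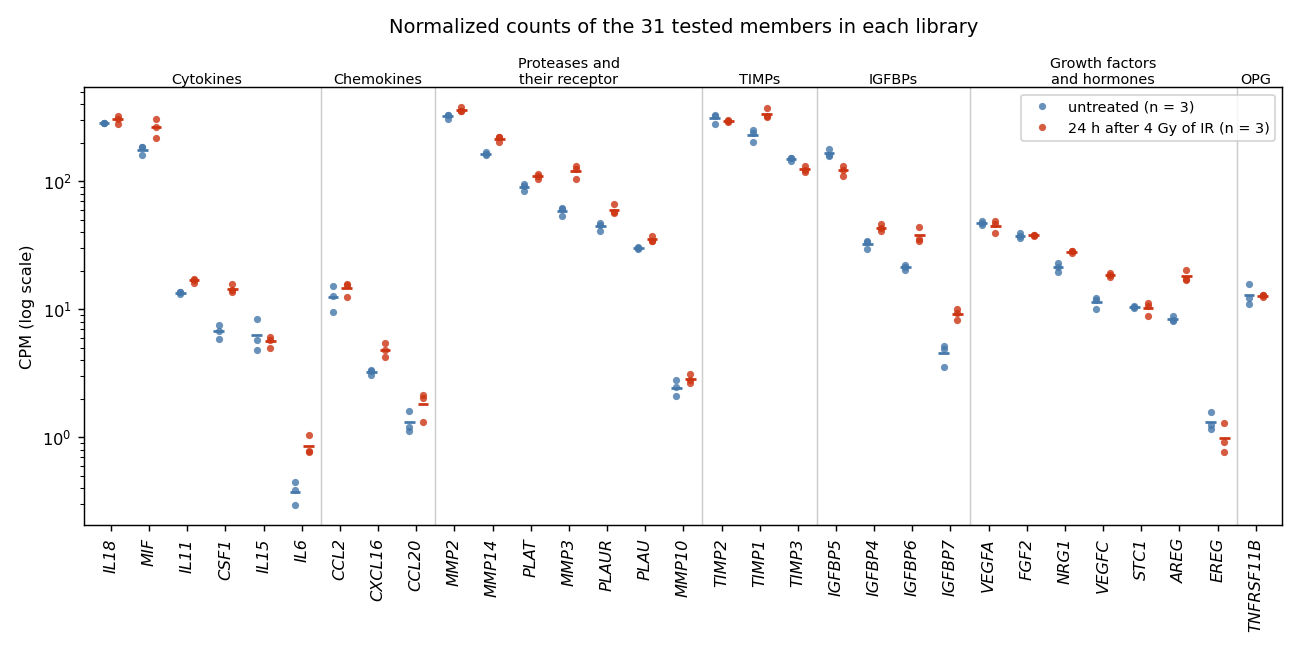
CPM (log axis) of the 31 tested members, grouped by role, with 1 point for each library (blue, untreated; red, 24 h after 4 Gy of IR; n = 3 each) and a bar at the group mean. AREG, CSF1 and MMP3 stand clear of their untreated libraries, TIMP3 and IGFBP5 lie below theirs, and IL18, FGF2 and STC1 overlap.

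The letters of 4 motifs were searched on both strands of the promoters, from 250 bases before to 50 bases after the start given by RefSeq (GRCh38.p14), which were listed for 30 of the members. The motifs were that of NF-kB, the AP-1 motif TGANTCA, the C/EBP motif TTGCNNAA and the cyclic AMP response element TGACGTCA. Only exact matches were counted, so that near matches to the NF-kB letters, as in the promoters of CXCL8 and ICAM1, count as absent. NF-kB letters were found in 8 of the 30 promoters and in 10.8% of 27305 promoters, AP-1 letters in 5 and in 7.76%, C/EBP letters in 4 and in 10.6%, and the cyclic AMP response element in 1 and in 1.98%. Entries were missing for IL15, IL18, CSF1, CXCL16, CCL2, CCL5, MMP1, MMP2, MMP3, PLAT, TIMP2, IGFBP7, VEGFA, NRG1, STC1 and TNFRSF11B. The promoters of IL6 (plus strand, chr7:22726950-22727249) and AREG (plus strand, chr4:74444886-74445185) are shown whole. These genes had the highest fold changes among the tested members, although IL6 passed the filter through its IR libraries alone. Capitals mark the C/EBP letters at -155 and the NF-kB letters at -73 in IL6, and the cyclic AMP response element at -65 in AREG, counted from the start site.
IL6: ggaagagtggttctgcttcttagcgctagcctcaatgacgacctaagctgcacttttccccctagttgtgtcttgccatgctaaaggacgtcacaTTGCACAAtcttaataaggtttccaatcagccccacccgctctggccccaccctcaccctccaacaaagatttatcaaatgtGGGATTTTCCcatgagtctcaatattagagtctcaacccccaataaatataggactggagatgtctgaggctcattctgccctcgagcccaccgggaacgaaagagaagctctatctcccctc
AREG: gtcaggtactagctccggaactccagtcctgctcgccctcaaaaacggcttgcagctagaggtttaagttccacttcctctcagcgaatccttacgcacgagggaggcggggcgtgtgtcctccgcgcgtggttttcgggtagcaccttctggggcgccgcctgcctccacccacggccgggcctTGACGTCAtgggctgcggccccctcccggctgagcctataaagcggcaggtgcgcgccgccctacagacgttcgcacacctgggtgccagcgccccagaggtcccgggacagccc

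Stretches of 60 bases that hold NF-kB letters are shown to set chemokines that were not called or did not pass the filter beside 2 members that rose. They are CXCL1 (plus strand, chr4:73869289-73869348), CXCL2 (minus strand, chr4:74099239-74099298), CXCL3 (minus strand, chr4:74038734-74038793), CCL20 (plus strand, chr2:227813738-227813797), IGFBP6 (plus strand, chr12:53097541-53097600) and VEGFC (minus strand, chr4:176793008-176793067), with the letters in capitals. In the 3 CXCL genes 2 overlapping matches make 1 run, and the stretches around it are nearly the same.
CXCL1: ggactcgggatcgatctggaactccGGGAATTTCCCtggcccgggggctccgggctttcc
CXCL2: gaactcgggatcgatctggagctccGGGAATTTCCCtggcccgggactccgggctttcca
CXCL3: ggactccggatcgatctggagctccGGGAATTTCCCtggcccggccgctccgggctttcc
CCL20: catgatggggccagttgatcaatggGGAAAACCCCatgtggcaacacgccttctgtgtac
IGFBP6: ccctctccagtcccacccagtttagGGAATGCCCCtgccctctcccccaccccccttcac
VEGFC: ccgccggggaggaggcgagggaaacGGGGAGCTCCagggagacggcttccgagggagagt
IGFBP5, which fell, also held NF-kB letters, at -176. AP-1 letters, in capitals, were found in IL11 (minus strand, chr19:55370525-55370584) and PLAUR (minus strand, chr19:43670321-43670380), which rose, in MMP10 (minus strand, chr11:102780661-102780720), which was not called, and in CXCL8 (plus strand, chr4:73740407-73740466), which did not pass the filter.
IL11: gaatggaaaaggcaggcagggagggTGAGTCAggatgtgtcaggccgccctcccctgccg
PLAUR: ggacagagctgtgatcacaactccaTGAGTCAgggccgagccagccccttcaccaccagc
MMP10: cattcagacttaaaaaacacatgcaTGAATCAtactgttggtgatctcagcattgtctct
CXCL8: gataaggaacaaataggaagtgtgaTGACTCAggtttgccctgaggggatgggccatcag
The promoter of IL1A held AP-1 letters at -12 and 39. Of the 11 called-higher members with a promoter, 3 held NF-kB letters and 2 held AP-1 letters, and of the 13 members that did not pass the filter these numbers were 3 and 2. IL6, which passed the filter through its IR libraries alone, is among the 11 and among the 3 called-higher members with NF-kB letters.

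Of the 9 cytokines, CSF1, MIF and IL11 rose, IL6 was called higher at very low counts, IL15 and IL18 were not called, and IL1A, IL1B and CSF2 did not pass the filter. CSF1, the growth factor of macrophages (chromosome 1), had 6.81, 7.58 and 5.91 CPM in untreated libraries and 13.7, 15.7 and 14.2 CPM after IR. Each IR library was above each untreated library, and the log2 fold change was 1.10 ± 0.12 (2.14-fold, adjusted p = 0.000521). MIF, the macrophage migration inhibitory factor (chromosome 22), had 159.9, 186 and 186 CPM in untreated libraries and 307, 220.2 and 266 CPM after IR. No IR library fell within the untreated range although the IR libraries spread widely, and the log2 fold change was 0.58 ± 0.11 (adjusted p = 0.0048). MIF had the highest GC content of the tested members, 65.9%, and once the dependence on GC content had been removed within each library, referred to below as the GC trend, its log2 fold change was 0.16 (adjusted p = 0.351). An unnamed gene, ENSG00000251357, shares exon sequence with MIF on the same strand, so that reads between them are uncertain.

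IL11, a cytokine of the IL-6 family (chromosome 19), had 13.3, 13.7 and 13.6 CPM in untreated libraries and 17.0, 16.2 and 17.4 CPM after IR. Without overlap between groups, the log2 fold change was 0.32 ± 0.09 (adjusted p = 0.0192). The call was lost with the GC trend removed (0.11, adjusted p = 0.364), without untreated replicate 1 (0.31, adjusted p = 0.0713) and without untreated replicate 2 (0.33, adjusted p = 0.059). IL6, the cytokine most often used to score this programme (chromosome 7), had 7, 10 and 6 counts in untreated libraries and 16, 19 and 35 counts after IR. These counts correspond to 0.384, 0.446 and 0.293 CPM and to 0.774, 1.03 and 0.775 CPM, with no overlap. The log2 fold change of 1.16 ± 0.35 (95% confidence interval 0.39 to 1.94, adjusted p = 0.0304) belongs to a gene that entered the test only because its IR libraries passed the filter. IL6 was not called without any 1 of the 6 libraries, at log2 fold changes of 1.01 to 1.32 and an adjusted p of up to 0.105. Nor was IL6 called in a fit of all 6 libraries without the filter on low counts. IL6 shares exon sequence with STEAP1B on the opposite strand.

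IL18, which inflammasome caspases activate by cleavage (chromosome 11), was the most abundant cytokine per length, with 539 ± 18.5 TPM (SD, n = 3) in untreated and 552 ± 42.5 TPM in IR libraries. It had between 285 and 286 CPM in untreated libraries and between 280.4 and 327 CPM after IR, which overlapped (log2 fold change 0.09, 95% confidence interval -0.06 to 0.25, adjusted p = 0.325). With the GC trend removed, IL18 was called higher (0.22, adjusted p = 0.0188). IL15, a growth factor of T and NK cells (chromosome 4), had between 4.78 and 8.36 CPM in untreated and between 5.01 and 6.05 CPM in IR libraries, with overlap (log2 fold change -0.16 ± 0.20, adjusted p = 0.57).

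IL1A, which acts upstream of IL6 at the cell surface (chromosome 2), had 3, 4 and 3 counts in untreated libraries and 6, 9 and 15 counts after IR. Allowing for library size, the summed counts gave a ratio of 2.18 (95% interval from counting alone 1.04 to 4.99). In a fit without the filter the adjusted p was 0.202, and IL1A was not called. CSF2, the granulocyte and macrophage growth factor (chromosome 5), had 3, 2 and 0 counts against 7, 9 and 15, a ratio of 4.50 (1.73 to 14.8), with an adjusted p of 0.0666 without the filter. Both genes were higher in each IR library than in each untreated library, at levels of a few counts. IL1B, the other interleukin-1 gene, had between 0 and 3 counts in any library.

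Of the 9 chemokines, which draw leukocytes along gradients, CXCL16 alone was called, CCL2 and CCL20 were tested and not called, and 6 did not pass the filter. CXCL16, a membrane-bound ligand of CXCR6 that is also shed (chromosome 17), had 3.29, 3.34 and 3.08 CPM in untreated libraries and 4.26, 5.50 and 4.78 CPM after IR. All IR libraries were above all untreated ones, and the log2 fold change was 0.58 ± 0.17 (adjusted p = 0.0276). The call held without IR replicate 1 alone and was lost without any of the other 5 libraries, with log2 fold changes between 0.48 and 0.60 and adjusted p-values of 0.0591 to 0.0986. CXCL16 shares exon sequence with MED11 and ZMYND15 on the opposite strand.

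CCL2, which draws monocytes (chromosome 17), had 15.2, 12.7 and 9.53 CPM in untreated libraries and 15.4, 15.8 and 12.5 CPM after IR. These ranges overlapped (log2 fold change 0.21, 95% confidence interval -0.15 to 0.58, adjusted p = 0.342). CCL20, the ligand of CCR6, had 1.21, 1.60 and 1.12 against 2.03, 2.12 and 1.31 CPM, also with overlap (log2 fold change 0.43 ± 0.29, adjusted p = 0.276). CXCL1 had 0 counts in each of the 6 libraries, where 3 counts, about the 95% upper limit of counting error for a count of 0, correspond to between 0.0664 and 0.165 CPM. CXCL2 had between 0 and 3 counts and CXCL3 between 1 and 11. CXCL1, CXCL2 and CXCL3 have near-identical sequences among which reads may be split, and their summed counts did not pass the filter either. CXCL8, the main neutrophil chemokine, had 6, 5 and 7 counts in untreated libraries and 4, 12 and 16 after IR, a ratio of 1.29 (0.703 to 2.44). CXCL12, the ligand of CXCR4, had a ratio of 1.72 (0.938 to 3.31) and CCL5, which draws T cells, a ratio of 1.24 (0.658 to 2.40). A difference in these chemokines was not detectable at this depth.

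**Figure D2:**
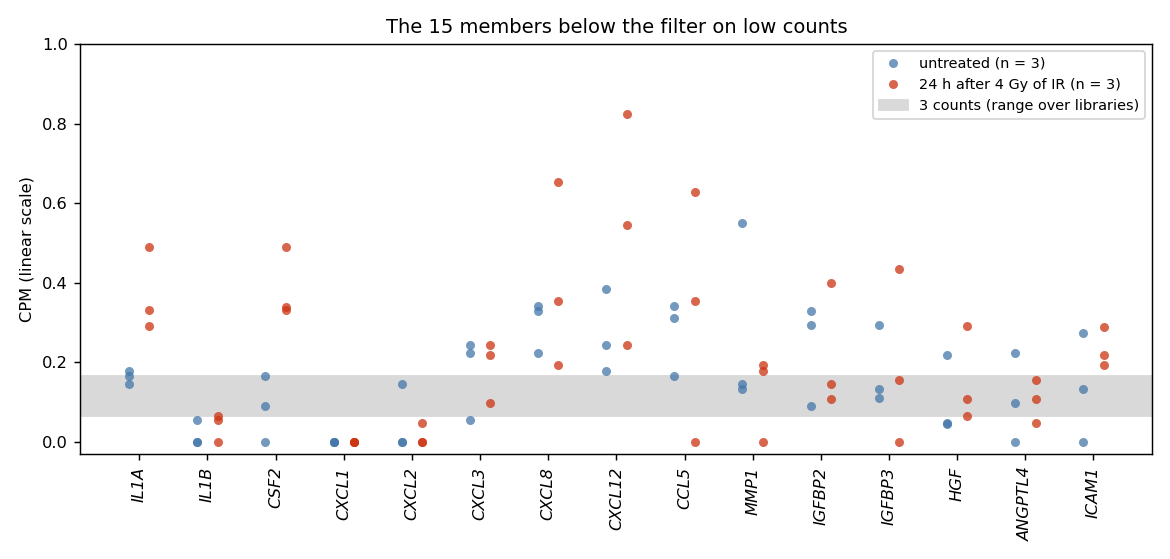
CPM (linear axis) of the 15 members that did not pass the filter, with 1 point for each library (blue, untreated; red, IR; n = 3 each) and a grey band for the CPM that 3 counts correspond to in the 6 libraries, 0.0664 to 0.165. IL1A and CSF2 are the genes whose groups do not overlap, and CXCL1 lies at 0 throughout.

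Of the 8 genes of extracellular proteolysis, 5 rose, MMP2 and MMP10 were not called, and MMP1 did not pass the filter. MMP3, or stromelysin 1, which cuts matrix proteins and activates other metalloproteinases (chromosome 11), had 53.7, 60.7 and 62.5 CPM in untreated libraries and 104.6, 125 and 132 CPM after IR. The groups were far apart, and the log2 fold change of 1.03 ± 0.10 (2.05-fold, adjusted p = 0.000242) had the lowest adjusted p of the members. MMP14, a membrane-anchored metalloproteinase that activates pro-MMP2 (chromosome 14), had 161, 171 and 163 CPM against 204, 222 and 222 CPM. These ranges lay apart, and the log2 fold change was 0.39 ± 0.06 (adjusted p = 0.00234), which came to 0.17 with the GC trend removed (adjusted p = 0.0428). With the replicate number also taken as a block it was no longer called (adjusted p = 0.0818). MMP2, or gelatinase A (chromosome 16), had 330.3, 330.4 and 306 CPM against 356, 380.2 and 354 CPM. Its groups did not overlap either, but the log2 fold change of 0.17 (95% confidence interval 0.03 to 0.32) had an adjusted p of 0.067 and was called only without IR replicate 3 (adjusted p = 0.0469). MMP2 shares exon sequence with the unnamed gene ENSG00000279030 on the same strand.

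The urokinase receptor PLAUR (chromosome 19), whose shed form is a known marker of senescent cells, had 45.6, 47.3 and 41.0 CPM in untreated libraries and 58.1, 56.4 and 66.1 CPM after IR. Its groups lay apart (log2 fold change 0.44 ± 0.09, adjusted p = 0.00497), and the call was lost with an offset for the effective length of each gene in each library, the length offset (0.40, adjusted p = 0.0515). Its ligand PLAU, the urokinase (chromosome 10), had 29.8, 30.8 and 30.4 CPM against 34.5, 34.0 and 37.7 CPM. Although each IR library was above each untreated library, the log2 fold change of 0.22 ± 0.07 (adjusted p = 0.0428) was not called without any 1 of the 6 libraries, with values between 0.16 and 0.25 and adjusted p-values of up to 0.134. PLAT, the tissue plasminogen activator (chromosome 8), had 92.7, 96.3 and 83.5 CPM against 109.5, 114 and 105 CPM. Here too the groups lay apart (log2 fold change 0.27 ± 0.07, adjusted p = 0.0192), and the call was lost without untreated replicate 1 (0.28, adjusted p = 0.0583), untreated replicate 3 (0.21, adjusted p = 0.0629) or IR replicate 2 (0.24, adjusted p = 0.073).

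MMP3 lies between the other stromelysin and collagenase genes on chromosome 11, a stretch that was chosen after its values were seen. Of the 9 genes from MMP7 to MMP13 (chr11:102520508-102955732), 4 passed the filter, and of these MMP3 was called and MMP10, MMP12 and MMP13 were not. MMP10, the second stromelysin, had between 2.09 and 2.79 CPM in untreated and between 2.64 and 3.10 CPM in IR libraries (log2 fold change 0.21 ± 0.20, adjusted p = 0.454). The interstitial collagenase MMP1 had 10, 3 and 3 counts against 4, 0 and 8 counts, a ratio of 0.544 (0.235 to 1.23). MMP12, whose groups did not overlap, had a log2 fold change of 0.69 ± 0.24 (adjusted p = 0.051) and MMP13 one of 0.83 ± 0.51 (adjusted p = 0.241), both from fewer than 100 counts in a library, and MMP27 and MMP8 were at 0 counts throughout.

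Of the 3 tissue inhibitors of metalloproteinases, TIMP1 rose, TIMP3 fell and TIMP2 was not called. TIMP1 (chromosome X), which was the most abundant member per length in untreated libraries (635 ± 47.2 TPM), had 252, 238 and 205 CPM in untreated libraries and 317, 373 and 323 CPM after IR. No library crossed between groups, and the log2 fold change was 0.54 ± 0.09 (1.46-fold, adjusted p = 0.00247), or 0.33 with the GC trend removed (adjusted p = 0.0168). TIMP3, which binds to the matrix (chromosome 22), fell, with 152, 152 and 145 CPM in untreated libraries and 123, 132 and 118 CPM after IR. The groups did not overlap, and the log2 fold change of -0.27 ± 0.07 (adjusted p = 0.0141) was not called without untreated replicate 1 (-0.25, adjusted p = 0.0646) or untreated replicate 2 (-0.26, adjusted p = 0.0583). TIMP2, which also takes part in the activation of pro-MMP2 by MMP14 (chromosome 17), had between 282 and 328 CPM in untreated and between 291 and 303 CPM in IR libraries (log2 fold change -0.07, 95% confidence interval -0.23 to 0.09, adjusted p = 0.5). TIMP2 shares exon sequence with CEP295NL on the same strand.

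The 4 tested IGFBPs were all called, 3 higher and IGFBP5 lower, beside 15.5% and 14.5% of all tested genes. IGFBP7, a binding protein with low affinity for the IGFs that is known for its part in oncogene-induced senescence (chromosome 4), had 4.94, 5.22 and 3.52 CPM in untreated libraries and 10.1, 8.33 and 9.37 CPM after IR. The lowest IR library was well above the highest untreated library, with a log2 fold change of 1.02 ± 0.17 (2.03-fold, adjusted p = 0.00234). IGFBP7 shares exon sequence with POLR2B on the opposite strand. IGFBP6, which prefers IGF2 (chromosome 12), had 20.3, 21.5 and 22.2 CPM against 35.8, 34.2 and 43.7 CPM. The groups did not overlap, and the log2 fold change of 0.84 ± 0.10 (adjusted p = 0.000665) came to 0.50 with the GC trend removed and was still called (adjusted p = 0.00131).

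IGFBP4 (chromosome 17) had 33.6, 34.3 and 29.6 CPM in untreated libraries and 43.3, 46.1 and 40.8 CPM after IR. The groups did not overlap (log2 fold change 0.41 ± 0.08, adjusted p = 0.00563), but with the GC trend removed the value was 0.09 (adjusted p = 0.541). IGFBP5, an abundant IGFBP of bone (chromosome 2), had 161, 178 and 159 CPM in untreated libraries and 133, 123 and 111 CPM after IR. Each IR library lay below each untreated library, and the log2 fold change was -0.44 ± 0.08 (adjusted p = 0.00355), or -0.48 with the GC trend removed. IGFBP5 and IGFBP2 are neighbours on chromosome 2. IGFBP2 had between 2 and 18 counts (ratio 1.19, 0.588 to 2.51) and IGFBP3, a p53 target in other cells, between 0 and 8 counts (ratio 0.990, 0.425 to 2.38). IGF2, a ligand of these proteins, fell by 0.37 on the log2 scale.

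Of the 9 growth factors and hormones, AREG, VEGFC and NRG1 rose, 4 were tested and not called, and HGF and ANGPTL4 did not pass the filter. AREG, or amphiregulin, a ligand of EGFR (chromosome 4), had 8.24, 8.92 and 8.06 CPM in untreated libraries and 17.3, 20.3 and 16.8 CPM after IR. The groups were far apart relative to their spread, with a log2 fold change of 1.10 ± 0.11 (2.15-fold, adjusted p = 0.000282) that lay between 1.02 and 1.15 without any 1 library. VEGFC, a growth factor of lymphatic vessels (chromosome 4), had 10.2, 12.3 and 11.8 CPM against 18.5, 17.7 and 19.1 CPM. Its groups did not overlap (log2 fold change 0.69 ± 0.10, adjusted p = 0.00133).

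The neighbours of AREG on chromosome 4 form a stretch that was chosen after its values were seen. From CXCL8 to AREG (chr4:73740519-74455005) lie 13 protein-coding genes of the files, of which 10 did not pass the filter, AREG was called, and MTHFD2L (log2 fold change -0.13, adjusted p = 0.299) and EREG were not. CXCL6, PF4V1, CXCL1, PF4 and PPBP were at 0 counts in each library. EREG, the related EGFR ligand next to AREG, had 1.15, 1.25 and 1.56 CPM in untreated libraries and 0.920, 0.762 and 1.28 CPM after IR, which overlapped (log2 fold change -0.37, 95% confidence interval -1.02 to 0.28, adjusted p = 0.361).

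NRG1, or neuregulin 1, a ligand of ERBB3 and ERBB4 (chromosome 8), had 19.6, 23.2 and 21.3 CPM in untreated libraries and 28.7, 28.4 and 27.3 CPM after IR. The groups did not overlap, and the log2 fold change was 0.40 ± 0.08 (adjusted p = 0.00703), or 0.62 with the length offset (adjusted p = 0.0486). NRG1 shares exon sequence with the unnamed gene ENSG00000286131 on the same strand, so that reads between them are uncertain. The hypoxia-inducible angiogenic factor VEGFA had between 45.3 and 49.5 CPM in untreated and between 39.2 and 49.4 CPM in IR libraries (log2 fold change -0.08, 95% confidence interval -0.28 to 0.13, adjusted p = 0.552). FGF2, which shares exon sequence with NUDT6 on the opposite strand, had between 36.3 and 39.4 CPM and between 37.5 and 38.3 CPM (log2 fold change 0.01, 95% confidence interval -0.14 to 0.16, adjusted p = 0.921). FGF2 was nevertheless called higher with the GC trend removed (0.21, adjusted p = 0.0479), having the lowest GC content of the tested members, 37.1%. With the replicate number also taken as a block FGF2 was not called. The glycoprotein hormone STC1 had between 10.2 and 10.7 CPM and between 8.90 and 11.3 CPM (log2 fold change -0.03 ± 0.12, adjusted p = 0.858). HGF, the ligand of MET, had between 1 and 6 counts (ratio 1.33, 0.451 to 4.38), and ANGPTL4, an inhibitor of lipoprotein lipase, between 0 and 7 counts (ratio 1.04, 0.356 to 3.21).

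TNFRSF11B, or osteoprotegerin, a decoy receptor for RANKL and TRAIL (chromosome 8), had 15.8, 11.1 and 12.2 CPM in untreated libraries and 12.9, 12.8 and 12.6 CPM after IR. These overlapped, with a log2 fold change of -0.03 (95% confidence interval -0.32 to 0.27, adjusted p = 0.9). ICAM1, the NF-kB-inducible ligand of leukocyte integrins, had 5, 3 and 0 counts against 4, 4 and 13 counts (ratio 1.91, 0.811 to 4.97).

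Per length, the members spanned a wide range in untreated libraries. TIMP1 (635 TPM), IL18 (539 TPM), MIF (428 ± 33.5 TPM) and MMP2 (219 ± 6.89 TPM) were the most abundant and did not overlap with their neighbours in this order. TIMP2 (93.8 TPM) and PLAT (66.3 TPM) followed, then MMP14 (49.9 TPM), PLAUR (47.8 TPM) and MMP3 (47.4 TPM), whose libraries overlapped. After IR, MMP3 had 98.7 ± 20.7 TPM. Of the 6 members with the largest called fold changes, all but MMP3 had under 30 TPM in untreated libraries, namely IGFBP6 (26.8 TPM), AREG (12.5 TPM), IGFBP7 (7.16 TPM), CSF1 (2.18 TPM) and IL6 (0.772 TPM).

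**Figure D3:**
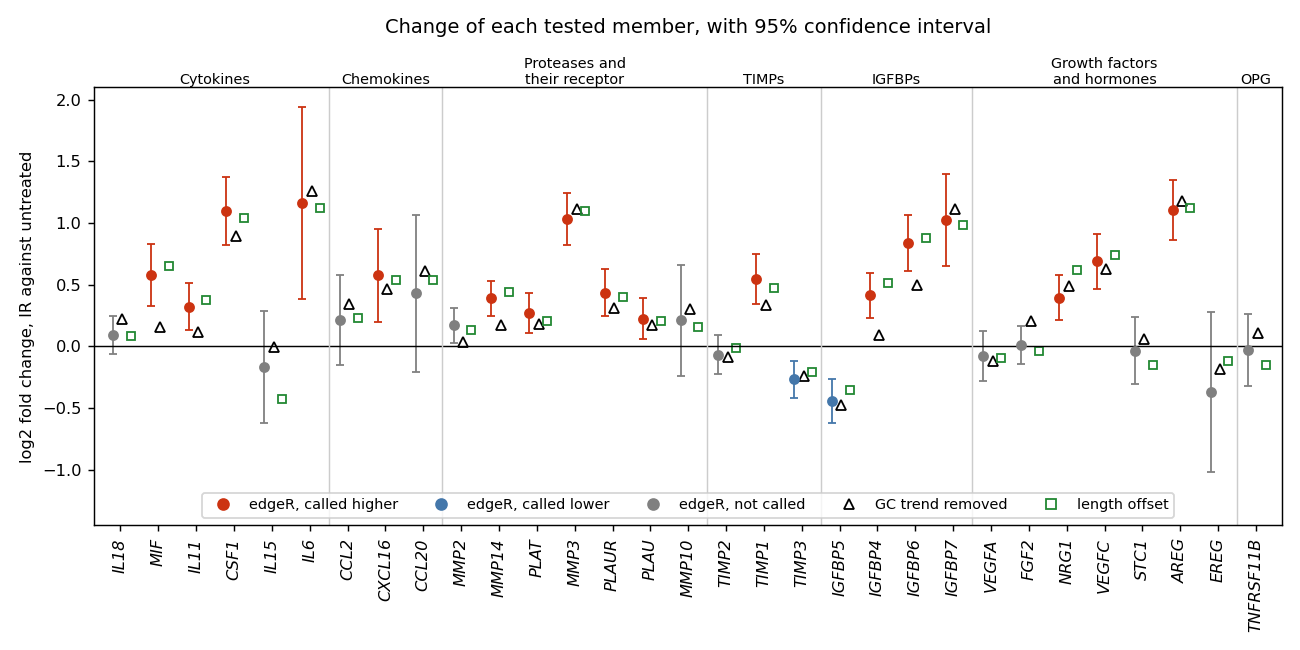
Log2 fold change of IR against untreated for the 31 tested members (n = 3 against 3), with the 95% confidence interval of edgeR (red, called higher; blue, called lower; grey, not called), beside the values with the GC trend removed (triangles) and with the length offset (squares). MIF and IGFBP4 come close to 0 with the GC trend removed, at 0.16 and 0.09, whereas AREG, MMP3 and IGFBP7 stay above 0.98.

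Fold change varied with GC content across the transcriptome, with a Pearson correlation of 0.44 over 14323 genes that share the same 6 libraries and 0.25 over the 31 tested members, given as a description. The 17 members called higher had a median GC content of 55.3%, the 12 not called 41.2%, and all tested genes 48.6%. With the GC trend removed, 13 of the 19 called members, IL6 among them, were still called, and IL18 and FGF2 were newly called. In that fit 11% of all tested genes were called higher and 13% lower. These are shares of all tested genes, and how many of all called genes kept their call was not computed. The calls of IL11, MIF, CXCL16, PLAU, PLAT and IGFBP4 were lost. With the length offset 11 of the 19 were still called, no member was newly called, and the calls of IL6, IL11, CXCL16, PLAU, PLAUR, PLAT, TIMP3 and IGFBP5 were lost. Of all tested genes, 5.82% were then called higher and 6.11% lower. CSF1, MMP3, TIMP1, IGFBP6, IGFBP7, VEGFC, AREG and NRG1 were called higher in the main fit and in each of 15 alternatives, of which 6 left out 1 library. The part of GC content in the calls was not tested beyond these values.

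The deposited values are per transcript, so that a change in the share of each transcript could be tested for 22 members with at least 2 transcripts. FGF2 (adjusted p = 0.00239, edgeR's diffSpliceDGE) and NRG1 (adjusted p = 0.000893) were called by Simes' method, beside 2.68% of 10666 genes. FGF2-202, a protein-coding transcript, had 3.08, 4.00 and 0.613 CPM in untreated libraries and was listed at 0 in each IR library, while the canonical FGF2-203 held between 81.4% and 95.6% of the counts of the gene in untreated and between 79.4% and 93.9% in IR libraries. NRG1-231, which is annotated as a target of nonsense-mediated decay, had 1.40, 1.32 and 6.34 CPM in untreated libraries and was listed at 0 in each IR library. The protein-coding NRG1-202 held 36.5%, 34.0% and 23.1% of the counts of NRG1 in untreated libraries and 40.8%, 38.7% and 46.7% after IR, which did not overlap. A value of 0 for 1 transcript among many that share sequence can be a failed estimate, and with a minimum of 10 counts for a transcript in every library neither gene was called. PLAT was called as well without IR replicate 2 (adjusted p = 0.000144).

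Of 27 genes that control the programme through NF-kB, C/EBP and related kinases, all of them tested, 9 were called higher (33.3%) and 1 lower (3.70%), beside 15.5% and 14.5% of all tested genes, and their median was 0.10 on the log2 scale. The 5 of largest rise among those called were CEBPD (1.22 ± 0.34), TNFAIP3 (0.73 ± 0.25), NFKBIZ (0.64 ± 0.08), NFKBIE (0.43 ± 0.13) and CEBPB (0.42 ± 0.11). NFKBIZ, an atypical IkB protein that acts as a coactivator, had 37.6, 45.7 and 45.4 CPM in untreated libraries and 66.6, 68.0 and 66.4 CPM after IR, with no overlap (adjusted p = 0.000868). TNFAIP3, which encodes the NF-kB inhibitor A20, had 2.25, 3.61 and 1.81 CPM against 3.92, 4.41 and 4.45 CPM (adjusted p = 0.0471). CEBPD had 1 untreated library below the cutoff of the filter. Removal of the GC trend left 2 of these genes called higher, beside 11% of all genes, with CEBPB at -0.02 and NFKBIZ at 0.74. The NF-kB subunits RELA (0.10), NFKB1 (-0.11) and RELB (0.65, adjusted p = 0.15) and the inhibitor NFKBIA (-0.06) were not called, and TRAF6, a ubiquitin ligase downstream of the interleukin-1 receptor, fell by 0.34.

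Of 43 receptors and binding partners of the members, 26 were tested, 4 were called higher (15.4%) and 3 lower (11.5%), close to the 15.5% and 14.5% of all tested genes, and their median was -0.01. The VEGF receptor FLT1 (1.18 ± 0.40, adjusted p = 0.049) was called at between 0.244 and 1.20 CPM and passed the filter through its IR libraries. CSF2RA (0.52), FGFR4 (0.45) and ERBB2 (0.29) were also higher, of which FGFR4 and ERBB2 were at 0.09 and 0.07 with the GC trend removed. NRP1, a co-receptor of VEGF proteins, had 136, 134 and 140.3 CPM in untreated libraries and 105, 91.1 and 87.5 CPM after IR, with no overlap (-0.54 ± 0.08, adjusted p = 0.00133). IL6ST, the gp130 subunit shared by the IL6 and IL11 receptors, had 198, 201 and 186 CPM against 156, 137 and 118 CPM (-0.51 ± 0.09, adjusted p = 0.00382), while IL6R was not called (0.07). FGFR2 fell by 0.32, and EGFR (0.12), ERBB3 (-0.06) and IGF1R (0.09) were not called.

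Of 29 serpins, metalloproteinases, sheddases and cytokine-processing genes that act with the members, 23 were tested, 10 were called higher (43.5%) and 2 lower (8.70%), beside 15.5% and 14.5% of all tested genes, and their median was 0.19. MMP17 (0.80 ± 0.24), MMP9 (0.80 ± 0.19), GSDMD (0.57 ± 0.10), ADAM15 (0.47 ± 0.12) and MMP19 (0.40 ± 0.08) had the 5 largest rises among those called. MMP9, or gelatinase B, had 4.61, 7.05 and 7.72 CPM in untreated libraries and 11.0, 9.36 and 13.3 CPM after IR, with no overlap (adjusted p = 0.0127). GSDMD, the pore protein through which IL1B and IL18 leave cells, had 45.6, 48.1 and 52.0 CPM against 63.6, 69.2 and 83.1 CPM (adjusted p = 0.00319). With the GC trend removed 5 of the 23 were called higher, beside 11% of all genes. MMP19 kept its call (0.33), whereas MMP17 (0.33), MMP9 (0.47), GSDMD (0.20) and ADAM15 (0.16) were no longer called. Of the partners not called in the main fit, CASP4 was called higher (0.29, adjusted p = 0.0249). MMP15 (-0.61, adjusted p = 0.00149) and MMP24 (-0.30, adjusted p = 0.00555), also not called in the main fit, were called lower. IGF2 (-0.37 ± 0.10) and the membrane metalloproteinase MMP16 (-0.29 ± 0.08) fell, and MMP16 was not called with the GC trend removed (-0.15, adjusted p = 0.116).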

How the data were processed

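Reads, trimmed by fastp, were assigned by the authors with kallisto to transcripts of GENCODE release 37 (GRCh38), as named in the study's methods, and deposited a table of estimated counts, TPM values, lengths and effective lengths for each library. Those estimated counts are not normalized, and each deposited TPM value takes account of effective length and library total. The strand setting is not given in the sources used here, so that reads of overlapping genes on opposite strands cannot be told apart. The methods name a total RNA kit, whereas poly(A) RNA and an mRNA kit are named in the labels.

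Of 161171 transcripts, 158711 matched GENCODE release 44 by identifier, holding 98.2% to 98.5% of each library, and the rest were left out. Counts were summed per gene, rounded to whole numbers, filtered by filterByExpr (minimum count 10 in at least 3 libraries, scaled to the library size), scaled by TMM and tested with glmQLFit and glmQLFTest (edgeR 4.0.16, limma 3.58.1, R 4.3.3), with Benjamini–Hochberg adjustment. Each standard error (SE) was derived from the log2 fold change and the F statistic. Transcript usage was tested by diffSpliceDGE on transcripts kept by filterByExpr. Counting intervals at 95% compare the summed counts of the groups exactly and, like the floor of 3 counts, cover counting error only. TPM values were used for levels between genes. The GC trend was removed by a spline offset with 5 degrees of freedom in each library. The scripts were tested on simulated data. Libraries of 1 group differed from each other beyond sampling noise, with a chi-square per gene of 3.44 to 9.15, and of 29.1 and 32.2 for the pairs with IR replicate 3, whose depth is also highest. The table of this library has a mark in its name that no source explains. Correlations of the deviations of same-numbered libraries from their group means were -0.02, 0.01 and -0.05. No pairing by number was seen in these values, which with 3 libraries in each group cannot exclude it.

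All 46 members are named, with the 5 called genes of largest absolute change in each direction from lists of control, receptor and partner genes, the members called for transcript usage, and CDKN1A, MDM2, LMNB1 and MKI67 as a check of the irradiation. Genes compared with the members, and markers, are named besides. One marker of the leukocyte list is not reported here. The members and lists were chosen with earlier results of these data known. Alternatives were the filter, DESeq2's size factors and Wald test (DESeq2 1.42.0), the likelihood ratio test of edgeR, the GC trend, a length offset, a replicate block, and each library left out in turn. The effective length exceeds the length for 24.2% to 29.1% of transcripts, so that the length offset may also carry a bias correction by kallisto, which no source used here states.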

Additional observations from a re-analysis of the deposited data

How the results depend on the processing

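Of the 19 called members, 8 were called in each of 15 alternatives and 13 were called without each library. All 19 kept their direction in each fit that tested them. IL6, which passed the filter through its IR libraries alone, is among the 19 and in the counts below. It is not among the 8 or the 13. The fits reuse the libraries that gave the calls, so that a kept direction is no separate support. These shares were not computed over all called genes. Members called higher numbered 17, and 11 with the length offset and with the GC trend removed together with the replicate block (12 to 15 without 1 library). Members called lower numbered 2, and 0 with the length offset (1 to 2 without 1 library). The median log2 fold change of 0.32 over the 31 tested members was 0.30 with at least 10 counts in every library, 0.21 with the GC trend removed, 0.38 with the length offset, 0.21 with the GC trend removed and the block, and 0.30 to 0.37 without 1 library. Control genes called higher (9) numbered 2 with the GC trend removed, with and without the block, and 2 with the length offset (2 to 8 without 1 library), and those called lower (1) numbered 2 with the GC trend removed and 0 with the length offset (0 to 3). Receptors called higher (4) numbered 2 with the GC trend removed, and 1 with the length offset and with the GC trend removed and the block (2 to 4), and those called lower (3) numbered 2 to 5 without 1 library. Partners called higher (10) numbered 5 with the GC trend removed, with and without the block, and 2 with the length offset (3 to 9), and those called lower (2) numbered 1 with the length offset (0 to 3). All genes called higher (2227) numbered 833 with the length offset and 1389 with the GC trend removed and the block (1295 to 2114), and those called lower (2080) numbered 875 with the length offset (1244 to 2284). The 2 calls of transcript usage numbered 0 with at least 10 counts in every library, a filter that removes transcripts at 0 (2 to 3 without 1 library).

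Members not called changed sign in some fits. With the GC trend removed, STC1 was at 0.058 and TNFRSF11B at 0.11, and with the block added STC1 was at 0.058, TNFRSF11B at 0.12 and IL15 at 0.0031. FGF2 was at -0.033 with the length offset. Without 1 library, FGF2 ranged from -0.014 to 0.044, TNFRSF11B from -0.13 to 0.13, IL15 from -0.32 to 0.092, VEGFA from -0.15 to 0.0086 and STC1 from -0.12 to 0.061. Except for the transcript filter, the cause of these differences was not tested.

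With the replicate block, although no pairing of libraries by number was seen, 15 members were called higher and 2 lower, receptors called higher numbered 2 and partners called higher 6, and 1727 genes were called higher and 1624 lower over all genes. The replicate block ended the calls of CXCL16 (adjusted p = 0.0519) and PLAU (adjusted p = 0.087). Summed counts of CXCL1, CXCL2 and CXCL3 did not pass the filter, so that this alternative gave no value. With 3 libraries in each group and few counts of IL6 (at most 35 in a library), IL1A and CSF2 (at most 15 each), changes of these genes are poorly measured.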
